A study of Mus musculus with 6 samples.

Results

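Immunoglobulin heavy chain variable (Ighv) genes encode the antigen-binding end of the antibody heavy chain. They were taken here as all genes whose mouse symbol starts with Ighv and whose annotated type is IG_V_gene, so genes annotated as pseudogenes were left out. All 113 such genes of the GENCODE annotation were present among the 46983 genes measured. They belong to 16 V families, and the number after Ighv names the family. The 6 libraries came from splenic B cells, which the study's methods describe as sorted CD21int CD23+ follicular (FO) B cells, of mice on a C57BL/6 background. The 3 *Hif1a* KO libraries came from *Hif1a* f/f mice carrying *Mb1*-cre, which deletes the floxed gene in B-lineage cells from an early stage, and the 3 WT libraries from littermates that were either *Hif1a* f/+ with cre or *Hif1a* f/f without it. The labels do not say which control was which, and no ages are given. All cells had been kept for 3 days under IgA class switching conditions, in which LPS was used at 5 μg/ml. TGF-β, BAFF and the cytokine IL-5 were each added at 10 ng/ml.

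Each developing B cell joins 1 V gene to a D and a J gene on a heavy chain allele, and the joined exon is transcribed from the promoter of that V gene. A V gene that was joined in many cells, or that is transcribed strongly in the cells that carry it, therefore gives many transcripts, and bulk RNA cannot tell these apart. Fewer cells of a kind and less RNA per cell cannot be told apart either. Class switching changes the constant region behind the joined V exon and leaves the V gene itself in place. FPKM, used throughout, is the number of fragments, scaled for the length of the gene and for the mapped fragments of the library. A share is the FPKM of a gene as a percentage of the FPKM summed over all Ighv genes in the same library.

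All 113 genes lie on the minus strand of chromosome 12 in the GRCm38 build, between positions 113578504 and 116000461, a stretch of 2.42 Mb. The D genes lie beside them, between 113430528 and 113525329, so the order of the Ighv genes can be counted from the D genes outwards. Of the 113 genes, 110 had an annotated coding sequence that begins with ATG, and 0 of these held an in-frame stop. In 104 of the 110, the last in-frame TGT lay within 15 bases of the 3′ end. V genes have the codon of a conserved cysteine near this place, which closes the variable domain just before the joining region. Whether the last TGT is that codon was not checked gene by gene, and in Ighv3-8 it began only 4 bases before the end. The 9 bases that begin with the last TGT read TGTGCAAGA in 59 genes, and those genes together took 65.8% of the summed Ighv FPKM. The last 60 coding bases are shown for the most used gene of each of the 6 families with the largest shares, for Ighv11-2 and Ighv12-3, which are known for their use by B-1 cells, and for Ighv15-2, which had the largest fold change. They are written 5′ to 3′ on the coding strand, from GENCODE coding sequence of GRCm38, and the cysteine codon is in capitals.
Ighv1-26 (chr12:114788372-114788431): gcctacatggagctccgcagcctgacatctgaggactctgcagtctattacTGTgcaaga
Ighv5-17 (chr12:113859149-113859208): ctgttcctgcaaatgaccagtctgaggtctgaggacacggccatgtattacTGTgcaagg
Ighv2-2 (chr12:113588267-113588326): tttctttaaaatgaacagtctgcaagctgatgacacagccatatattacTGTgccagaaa
Ighv10-1 (chr12:114479005-114479064): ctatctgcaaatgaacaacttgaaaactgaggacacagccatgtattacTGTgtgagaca
Ighv9-3 (chr12:114140692-114140751): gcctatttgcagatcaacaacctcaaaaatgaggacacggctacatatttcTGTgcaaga
Ighv3-6 (chr12:114288152-114288211): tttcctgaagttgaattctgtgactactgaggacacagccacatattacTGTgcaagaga
Ighv11-2 (chr12:114048241-114048300): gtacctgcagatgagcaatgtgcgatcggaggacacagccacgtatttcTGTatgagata
Ighv12-3 (chr12:114366521-114366580): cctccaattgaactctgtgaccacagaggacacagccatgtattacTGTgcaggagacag
Ighv15-2 (chr12:114564578-114564637): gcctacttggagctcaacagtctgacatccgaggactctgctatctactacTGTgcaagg

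Genes of the same family were alike. Over the last 290 coding bases, the median identity was 85.2% for the 1540 pairs within a family and 58.3% for the 4788 pairs from different families. The median identity of a gene to its nearest relative was 95.5%, and 60 of the 113 genes had a relative of at least 95% identity. A read that fits 2 genes equally well cannot be assigned to either. All stretches of 100 bases were distinct from every other gene of the Ighv set, pseudogenes included, in 75 genes, and fewer than 90% of them were distinct in 19 genes. The most used gene, Ighv1-26, and its nearest relative, Ighv1-18, differed at 8 of the last 290 bases, which are in capitals.
Ighv1-26 (chr12:114788372-114788661): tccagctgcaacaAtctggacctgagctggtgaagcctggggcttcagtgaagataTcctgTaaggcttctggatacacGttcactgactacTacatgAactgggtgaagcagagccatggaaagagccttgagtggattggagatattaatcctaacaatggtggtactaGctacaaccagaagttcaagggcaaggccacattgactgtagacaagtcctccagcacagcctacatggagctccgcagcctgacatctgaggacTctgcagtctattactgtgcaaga
Ighv1-18 (chr12:114682632-114682921): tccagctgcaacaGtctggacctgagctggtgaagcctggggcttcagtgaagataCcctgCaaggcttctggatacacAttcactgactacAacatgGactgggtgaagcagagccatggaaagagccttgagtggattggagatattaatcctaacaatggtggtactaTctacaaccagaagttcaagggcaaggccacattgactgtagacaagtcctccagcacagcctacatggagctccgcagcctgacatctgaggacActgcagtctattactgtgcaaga

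Ighv1-62-2 and Ighv1-71 did not differ at any of the last 290 bases, and only 3.1% of the stretches of 100 bases told either gene from the rest. Ighv1-62-2 was measured at 26.7, 17.7 and 14.5 FPKM in the WT libraries and Ighv1-71 at 2.43, 2.15 and 0.698 FPKM. How reads were divided between them is not known, so their separate levels are uncertain. Their shared stretch is shown once, for Ighv1-62-2.
Ighv1-62-2 (chr12:115446409-115446698): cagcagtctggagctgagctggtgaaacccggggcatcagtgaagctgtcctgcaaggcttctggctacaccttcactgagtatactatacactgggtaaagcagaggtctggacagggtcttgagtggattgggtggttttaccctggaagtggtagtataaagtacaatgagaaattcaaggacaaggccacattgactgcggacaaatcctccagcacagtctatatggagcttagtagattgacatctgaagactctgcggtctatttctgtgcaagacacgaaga

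The libraries held between 25030208 and 37222476 counted fragments, as worked out from the FPKM steps, and between 59266 and 120584 of these fell on Ighv genes, or 0.228% to 0.356% of each library. *Hif1a* itself was at 36.5, 49.8 and 45.8 FPKM in WT and at 46.5, 45.6 and 52.8 FPKM in KO. The table gives 1 value per gene over all exons, so this does not check the deletion. B cell markers were high in all 6 libraries, with *Ms4a1*, which encodes CD20, between 326 and 445 FPKM. T cell markers summed to 0.949 FPKM in WT 1 and to at most 0.46 FPKM in the other libraries. WT 2 and WT 3 had more *Lyz2*, a lysozyme of macrophages and other myeloid cells, at 58.3 and 26.2 FPKM, than WT 1 at 6.18 FPKM and KO at 0.6, 2.23 and 3.7 FPKM. WT 1 alone held the neutrophil genes *S100a8* and *S100a9* above 1 FPKM, at 10.9 and 19.9 FPKM.

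In every library the Ighv transcripts were spread over many genes, and the most used gene was the same. Of the 113 genes, 101 had at least 3 reads in each of the 6 libraries, and 6 had no read in any library. Those 6 were Ighv7-2, Ighv16-1, Ighv1-16, Ighv1-24, Ighv1-62-1 and Ighv8-13. A count of 0 in a library allows up to 3 reads, and this limit covers counting error only. A further 5 genes, Ighv6-4, Ighv6-5, Ighv6-7, Ighv8-9 and Ighv5-12-4, had reads but a mean FPKM below 0.5, and the remaining 102 genes were tested between genotypes. Ighv8-11 was the lowest of those tested, at means of 0.672 FPKM in WT and 0.604 FPKM in KO, and Ighv6-4 was the highest left out, at 0.343 and 0.557 FPKM. The 34 genes with a mean share of at least 1% took 76.4% of the summed FPKM, while the 28 genes below 0.1% took 0.72%.

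Ighv1-26 was the most used gene in all 6 libraries. Its share was 7.19%, 6.11% and 6.56% in WT and 6.98%, 6.19% and 6.61% in KO, so the genotypes overlapped. Ighv1-82, of the same family and near the far end of the locus, came second with a mean share of 4.49%. Its share was 5.01%, 3.58% and 3.49% in WT and 4.89%, 4.69% and 5.29% in KO, with WT 1 among the KO values. Ighv9-3 and Ighv10-1 came next, at 3.71% and 3.46%. Ighv10-1 ranged from 2.75% in KO 3 to 4.35% in WT 2. The order among the next genes is not firm, since Ighv3-6, Ighv1-80, Ighv1-53 and Ighv6-3 had mean shares of 3.4%, 3.36%, 3.34% and 3.22%, and their values overlapped from library to library. Ighv5-17, Ighv1-55, Ighv1-9 and Ighv1-64 followed at 2.62%, 2.61%, 2.54% and 2.53%. In all, 14 genes were among the 10 most used of at least 1 library, and 7 were among the 10 in every library.

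**Figure D1:**
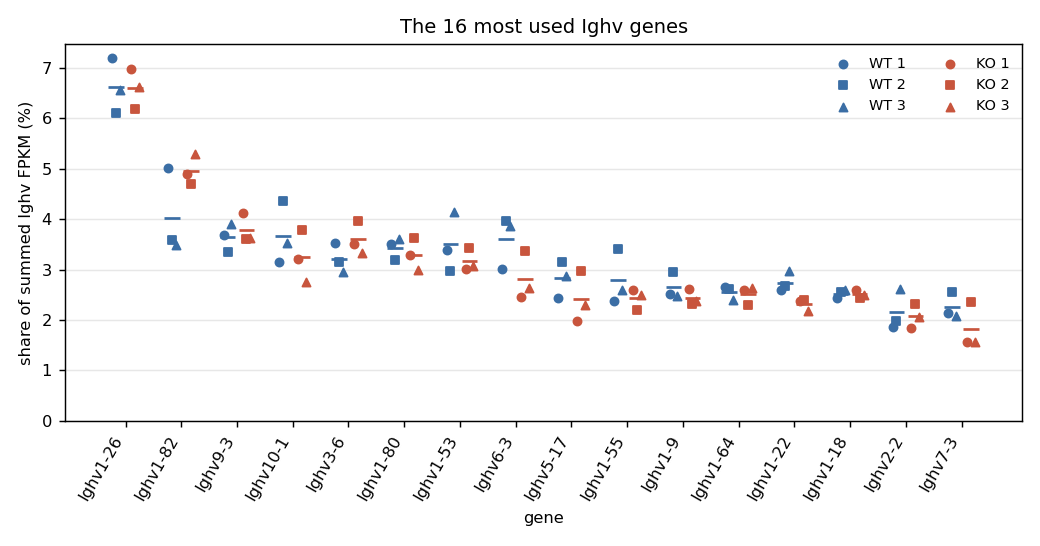
Share of summed Ighv FPKM (%, vertical axis) of the 16 most used Ighv genes in each library, with WT in blue, KO in red and a bar at the mean of 3. Ighv1-26 lies above the other genes in every library, and WT and KO overlap for most genes.

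In these 6 libraries the use of the Ighv genes was spread over slightly more genes in KO than in WT, though the groups parted by a small margin only. The effective number of genes, which is the number of equally used genes that would give the same sum of squared shares, was 41.5, 42.1 and 41.4 in WT and 42.6, 42.4 and 43.9 in KO. The groups did not overlap, but the means of 41.6 ± 0.405 and 43.0 ± 0.841 (SD, n = 3 each) differed by only 1.34 genes, and by 0.86 without KO 3. The 10 most used genes of each library held 37.7%, 37.2% and 37.9% of the summed FPKM in WT and 36.8%, 38.1% and 35.4% in KO, and these groups overlapped. No library was dominated by a single V gene.

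Family V1, with 53 genes by far the largest, took between 51.4% and 57.0% of the summed FPKM in each library. V5 and V2 followed at mean shares of 7.55% and 7.41%, then V10 at 5.48%, V9 at 5.04%, V3 at 4.74% and V6 at 4.53%. V8, V14 and V7 took 3.62%, 3.57% and 2.44%. The other 6 families, V4, V11, V12, V13, V15 and V16, stayed below 1% each, and V16, with Ighv16-1 alone, had no read. Small families could be used heavily. The 2 genes of V10 took more than the 9 genes of V8, whose most used gene, Ighv8-8, had a mean share of 1.73%. In some families 1 gene made up most of the share, as Ighv7-3 did with 83.6% of V7, Ighv9-3 with 73.7% of V9, Ighv3-6 with 71.9% of V3 and Ighv6-3 with 71.0% of V6. In others the share was divided, and Ighv14-2 held 46.2% of V14 and Ighv2-2 held 28.5% of V2.

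**Figure D2:**
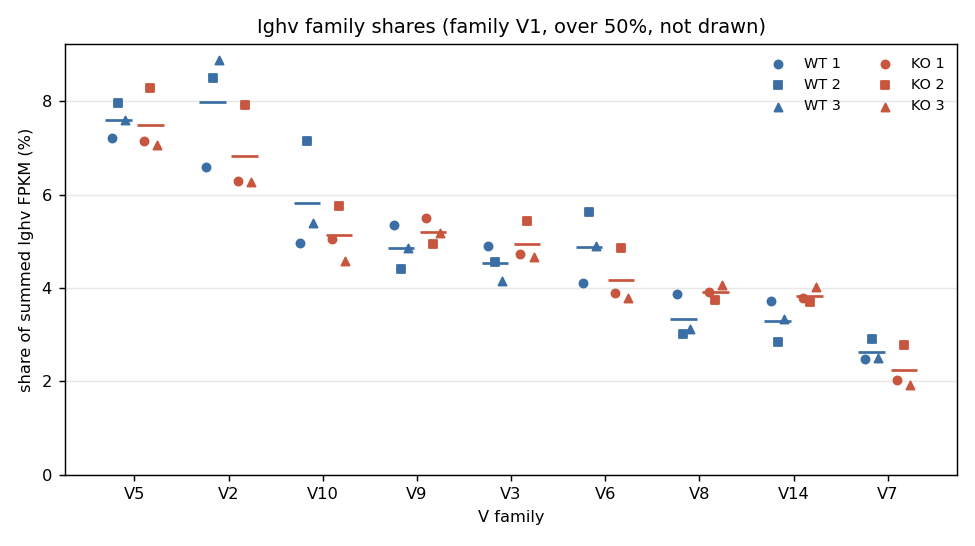
Share of summed Ighv FPKM (%, vertical axis) of the 9 families other than V1 with a mean share of at least 1%, in each library, with a bar at the mean of 3. For V2, WT 2 and WT 3 lie at 8.5% and 8.88%, KO 2 at 7.92%, and WT 1, KO 1 and KO 3 between 6.28% and 6.59%.

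The shares of most families overlapped between the genotypes, and libraries of 1 genotype stood apart from each other. The share of V2 was 6.59%, 8.5% and 8.88% in WT and 6.3%, 7.92% and 6.28% in KO, with WT 1 close to KO 1 and KO 3, and KO 2 closer to WT 2. In V6 too, WT 2, WT 3 and KO 2 were the higher libraries, at 4.1%, 5.62% and 4.91% in WT and 3.9%, 4.85% and 3.79% in KO. V8 was 3.87%, 3.01% and 3.12% in WT and 3.92%, 3.75% and 4.07% in KO, where again WT 1 lay within the KO range. Of the 15 families with reads, the WT and KO shares did not overlap in only 2, V12 and V15, each of which has 1 gene and about 0.1% of the total. By FPKM, every KO library lay above every WT library in 4.06% of all genes and below in 6.03%. Without WT 1 the shares of 8 families did not overlap, and without KO 2 those of 10 families. Groups separate more easily when a library is left out, and shares of the same total are not independent. These counts are therefore a description of how far the overlap depends on single libraries.

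Some single genes of V2 showed the grouping of that family, to whose share they contribute. Among the 40 most used genes, the 4 whose highest share was the largest multiple of their median share were Ighv2-3, Ighv10-3, Ighv2-9 and Ighv1-19. Ighv2-3 took 0.965%, 1.75% and 1.61% in WT and 0.896%, 1.33% and 0.919% in KO. Ighv2-9 took 0.968%, 1.63% and 1.29% in WT and 0.835%, 1.2% and 0.801% in KO. In both genes WT 1 lay beside KO 1 and KO 3, and the other 3 libraries were higher. Ighv10-3 was high in WT 2 alone, at 2.8% against 1.82% to 1.96% elsewhere, and Ighv1-19 was low in WT 2 alone, at 0.49% against 0.979% to 1.62%.

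The distance between 2 libraries, counted as the percentage of the Ighv total that would have to be moved from some genes to others to make them equal, also placed WT 1 nearer to the KO libraries than to the other WT libraries. KO 1 and KO 3 were the nearest pair, at 5.02%. WT 1 was at 5.49% from KO 1, 5.79% from KO 3 and 6.55% from KO 2, but at 10.9% and 9.92% from WT 2 and WT 3. Over all genes KO 2 was nearest to WT 1, and it was at 8.18% from KO 1, 8.37% from WT 3, 8.84% from KO 3 and 9.34% from WT 2, so it did not stand beside WT 2 and WT 3 as it did in V2. The distances had a median of 9.29% over the 6 pairs of the same genotype and 9.34% over the 9 pairs of different genotype. These values are given as a description, since the pairs share libraries. The spread between libraries was larger than counting error. In the 28 genes with at least 1000 and fewer than 3000 mean reads, the share of reads varied between the 6 libraries with a median coefficient of variation of 13.1%, against 2.52% from counting alone. In the 48 genes with at least 100 and fewer than 1000 the values were 21.0% and 5.32%.

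Use did not fall off steadily along the locus. The 56 genes nearest the D genes held 44.9%, 49.4% and 46.8% of the summed FPKM in WT and 44.5%, 49.0% and 43.5% in KO, and the groups overlapped. The means were 47.0% ± 2.26 in WT and 45.6% ± 2.94 in KO (SD, n = 3 each). Heavily used genes lay throughout the locus, from Ighv2-2, second from the D genes, with a mean share of 2.11%, to Ighv1-26, at place 67, and Ighv1-82, at place 111 of 113.

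**Figure D3:**
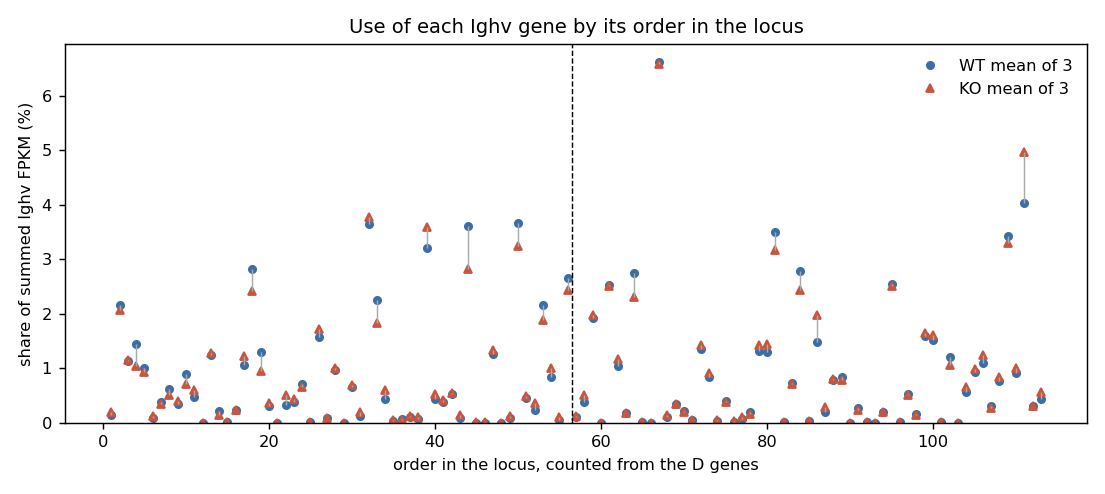
Mean share of summed Ighv FPKM (%, vertical axis) of the 113 Ighv genes by their order from the D genes (horizontal axis), for WT and KO, with a line joining the means of each gene and a dashed line after the 56 nearest genes. Heavily used genes lie on both sides of the dashed line, with Ighv1-26 highest at place 67.

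The summed level of the Ighv genes differed between libraries but did not separate the genotypes. The sum was 9029, 6607 and 6333 FPKM in WT and 8402, 6975 and 9900 FPKM in KO. WT 1, KO 1 and KO 3 were high and the other libraries low, so WT 1 lay inside the KO range. On the log2 scale KO was higher by 0.206, with SDs of 0.279 in WT and 0.253 in KO (n = 3 each), so the difference was smaller than the spread. *Ighm*, the μ constant region gene, had the same order, at 9070, 6420 and 5740 FPKM in WT and 7810, 7280 and 9310 FPKM in KO. The ratio of summed Ighv to *Ighm* FPKM ranged only from 0.958 to 1.1. The 100 light chain Igkv genes moved alike, from 6817 FPKM in WT 3 to 10330 FPKM in KO 3, and the ratio of Ighv to Igkv ranged from 0.917 to 1.01. The 70 Ighv pseudogenes summed to 19.3 to 32.9 FPKM, at most 0.407% of the Ighv total.

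**Figure D4:**
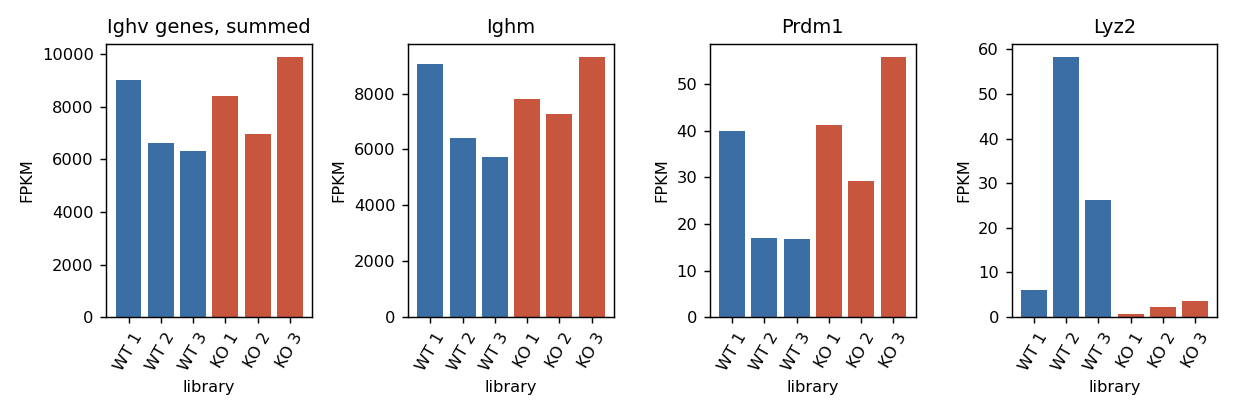
FPKM (vertical axis, linear from 0) in each library for the sum of the 113 Ighv genes, *Ighm*, *Prdm1* and *Lyz2*, with WT in blue and KO in red. The Ighv sum, *Ighm* and *Prdm1* are highest in WT 1, KO 1 and KO 3, and *Lyz2* is highest in WT 2 and WT 3.

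Several genes of the antibody-secreting state, though not *Sdc1*, were also highest in WT 1, KO 1 and KO 3. *Prdm1*, which encodes the plasma cell regulator Blimp-1, was at 40, 17.1 and 16.7 FPKM in WT and 41.3, 29.2 and 55.9 FPKM in KO. *Jchain*, which joins IgA and IgM units, was at 182, 90.5 and 84.0 FPKM in WT and 173, 142 and 220 FPKM in KO. *Xbp1*, a regulator of the secretory pathway, was at 363, 213 and 193 FPKM in WT and 334, 233 and 474 FPKM in KO. The 5 plasma cell markers together summed to 791 to 1280 FPKM in WT and 902 to 1580 FPKM in KO, and *Sdc1*, a surface marker of plasma cells, was low and had another order, at 4.67, 3.8 and 3.19 FPKM in WT and 2.68, 3.67 and 4.01 FPKM in KO. The 5 macrophage markers summed to 73.4, 163 and 117 FPKM in WT and 67.0 to 78.9 FPKM in KO. Their sum was highest in 2 of the libraries where the Ighv sum was low. Its largest part was *Adgre1*, at 59.8, 91.1 and 81.1 FPKM in WT and 67.7, 69.7 and 55.5 FPKM in KO. *Mrc1* was low and had another order, at 0.938, 1.04 and 0.714 FPKM in WT and 0.966, 0.884 and 1.12 FPKM in KO. The part of either group of cells in the Ighv levels was not tested.

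No Ighv gene was called different between the genotypes. In limma-trend on log2(FPKM + 1), 0 of the 102 tested Ighv genes passed an adjusted p of 0.05, and 0 of all 13312 genes did (0.0%). The smallest adjusted p of an Ighv gene was 0.626. The voom test on reads recovered from the FPKM also called 0. At an unadjusted p under 0.05, 8 Ighv genes were higher in KO and 1 was lower, against 2.48% and 4.5% of all genes, and voom gave 7 and 1. Of the 102 genes, 86 had a positive log2 fold change, or 84.3%, with a median of 0.28, while 42.1% of all genes did, with a median of -0.028. The Ighv genes are not independent of each other, since they share the level of the locus in each library. The paper used another test, DESeq, and reports differentially expressed genes, with lower expression of glycolysis genes in KO. That test was not repeated here.

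**Figure D5:**
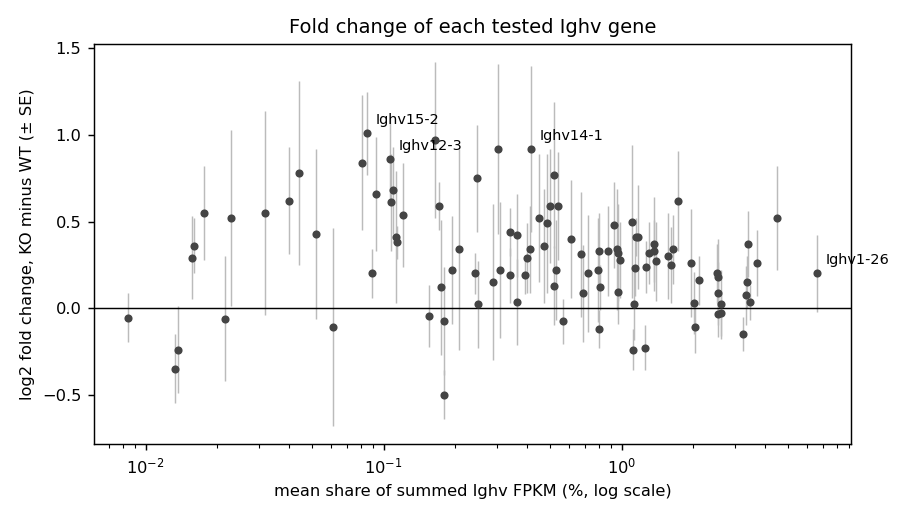
Log2 fold change of KO against WT with its SE (vertical axis, on the log2(FPKM + 1) scale) against the mean share of summed Ighv FPKM (horizontal axis, log scale) for the 102 tested Ighv genes. Most genes lie above 0, Ighv15-2 is highest at 1.01, and no gene passed an adjusted p of 0.05.

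The 6 largest fold changes were in genes with mean shares below 0.5%. Ighv15-2, the sole member of its family, was at 6.09, 3.66 and 3.05 FPKM in WT and 11.1, 7.17 and 10.1 FPKM in KO. Every KO library lay above every WT library, and the log2 fold change was 1.01 ± 0.24 (SE), with an adjusted p of 0.626 in limma. It rested on 28 to 107 reads per library. Ighv12-3, whose product is known in mice for binding phosphatidylcholine on B-1 cells, was at 8.07, 3.57 and 5.89 FPKM in WT and 9.28, 12.2 and 11.6 FPKM in KO. The groups did not overlap, and the log2 fold change was 0.86 ± 0.24 (limma, adjusted p = 0.626). Ighv11-2, the other gene known for that specificity, was at 6.88, 7.22 and 5.18 FPKM in WT and 7.97, 6.5 and 8.06 FPKM in KO, where the groups overlapped. It is 98.6% identical to Ighv11-1, which was at or below 1.83 FPKM. Of the 6 B-1 markers, which include both of these genes, 5 had a positive log2 fold change and 1 a negative one, and none was called. *Spn* was at 40.8, 31.5 and 29.8 FPKM in WT and 46.3, 40.4 and 42.8 FPKM in KO, a log2 fold change of 0.34 with an unadjusted p of 0.0281 in limma. *Bhlhe41* and *Zbtb32* had log2 fold changes of 0.12 and 0.04, and *Cd5*, at 2.47 to 3.55 FPKM in WT and 2.45 to 2.69 FPKM in KO, one of -0.14. The part of B-1 cells in the level of Ighv12-3 was not tested.

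Ighv9-2 was at 16.8, 3.77 and 8.12 FPKM in WT and 14.7, 14.3 and 23.1 FPKM in KO. Ighv14-1 was at 46.1, 18.5 and 11.4 FPKM in WT and 40.4, 30.2 and 59.3 FPKM in KO, and Ighv1-5 at 33.7, 11.2 and 9.93 FPKM in WT and 34.5, 18.9 and 43.1 FPKM in KO. In these 3 genes WT 1 lay among the KO values. Ighv1-49 was at 7.32, 1.9 and 4.65 FPKM in WT and 11.5, 5.95 and 8.08 FPKM in KO, which also overlapped. Their log2 fold changes lay between 0.84 and 0.97, with SEs of 0.39 to 0.49. These values leaned on single libraries of both genotypes. Without WT 2, Ighv9-2 was at 0.49 and Ighv1-49 at 0.43, and without WT 3, Ighv14-1 was at 0.5 and Ighv1-5 at 0.61. Without WT 1, Ighv9-2, Ighv14-1 and Ighv1-5 were at 1.44, 1.46 and 1.44. Without KO 3 the same genes were at 0.75, 0.68 and 0.67, and without KO 2 at 1.08, 1.15 and 1.25. Ighv1-49 was at 0.63 without KO 1 and at 1.05 without KO 2. By FPKM, 7 tested Ighv genes lay above every WT library in all KO libraries, against 4.06% of all genes, and 1, Ighv2-6-8, lay below, against 6.03%. Ighv2-6-8, named after its values were seen, was at 16.2, 17 and 15 FPKM in WT and 9.01, 10.9 and 13.6 FPKM in KO.

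The absence of calls rested on WT 1. Without that library, which leaves 2 WT libraries, limma called 17 of the 102 Ighv genes, all of them higher in KO, against 3.64% of all genes called higher and 5.75% called lower. The median log2 fold change of the Ighv genes was then 0.43. Among those called were Ighv1-82, at a log2 fold change of 0.85 and an adjusted p of 0.0449, and Ighv3-6, at 0.6 and 0.0181. Ighv15-2 and Ighv12-3 were called as well, at 1.25 and 1.09. Ighv1-26 was not, at 0.42 with an adjusted p of 0.164 in limma. Leaving out any other library gave 0 calls among the Ighv genes. WT 1 was left out only to show how far the result depends on it, and nothing in the labels sets it apart.

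Of the 43 other genes of the pathway, 36 were tested, and none was called in limma with all 6 libraries. *Igha*, the α constant region gene, was at 62.2, 34.6 and 32.3 FPKM in WT and 66.9, 58.0 and 74.5 FPKM in KO, with an unadjusted p of 0.0284 in limma. WT 1 was again near the KO values in *Igha*. Of the 7 constant region genes tested, 5 had a positive fold change and 2, *Ighg1* and *Ighg2c*, a negative one. The joining genes *Ighj1* to *Ighj4*, which lie between the D genes and *Ighm*, had log2 fold changes between -0.12 and 0.2. *Rag1* and *Rag2*, which cut the DNA for V(D)J joining, and *Dntt*, which adds bases at the joints, were below 1 FPKM in every library, but WT 1 stood apart in all 3. *Rag1* was at 0.992 FPKM in WT 1 and at most 0.0557 FPKM elsewhere, *Rag2* at 0.122 FPKM in WT 1 and listed at 0 elsewhere, and *Dntt* at 0.205 FPKM in WT 1 and at most 0.0319 FPKM elsewhere. The part of this in the results that rest on WT 1 was not tested. The 11 transcription factor genes had log2 fold changes from -0.06 to 0.41, the highest being *Pou2af1*, a coactivator at octamer sites of immunoglobulin promoters, at 471, 288 and 282 FPKM in WT and 449, 396 and 508 FPKM in KO. *Cd79a*, the locus that carries *Mb1*-cre, was at 1200, 739 and 779 FPKM in WT and 498, 1070 and 611 FPKM in KO.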

How the data were processed

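RNA was sequenced from 3 WT and 3 KO libraries. The authors aligned paired reads to mm10 with TopHat, counted reads per gene with HTSeq and deposited FPKM, and how reads fitting several genes were counted is not given in the sources used here. The authors' gene lengths matched the mean annotated transcript length in 106 of 107 Ighv genes with reads (298 to 461 bases), so shares depend on those lengths. Symbols, positions and coding sequence came from GENCODE vM21 (GRCm38), which matched 46488 of 46983 IDs. Reads were recovered from FPKM steps: 97.0% to 97.2% of low values were whole within 0.05 reads. All genes whose mean FPKM reached 0.5 were tested with limma-trend on log2(FPKM + 1), with Benjamini-Hochberg adjustment over all genes. Fold changes are on that scale and understate those of low genes. Sums and shares are given with their SD, because 3 libraries against 3 cannot reach an exact two-sided p below 0.1. On simulated data with 6 libraries and 13312 genes, the test recovered 77.5% of genes changed by 1 on the log2 scale and 26.0% of those changed by 0.5. The recovery of genes that move together between libraries, as the Ighv genes do, was not tested. The labels do not say that replicates are separate animals, so the spread may be technical. The members and lists were chosen with earlier results of these data known. Genes named were the 12 most used, the most used of each family of at least 1%, the 6 largest fold changes, the 4 least steady of the 40 most used, Ighv11-2 and Ighv12-3. Searches for octamer and heptamer motifs were planned and not run, since no promoter or genome sequence of these genes was used here. The alternatives were other pseudocounts, filters, scalings, a replicate block, read shares, voom and leaving out each library. Some genes of the fixed lists are not reported here.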

Additional observations from a re-analysis of the deposited data

How the results depend on the processing

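The count of Ighv genes called stayed at 0 in every alternative that kept all 6 libraries, with voom on recovered reads and a replicate block included. Leaving out 1 library gave 0 to 17 calls, and the 17 came without WT 1. The labels do not say whether libraries of the same number are paired. Same-numbered libraries had correlations of -0.1, 0.14 and -0.28 between their deviations, which cannot settle this with 3 libraries per group. The replicate block gave 0 calls with a smallest adjusted p of 0.78 in limma. The number of families whose groups did not overlap was 2 (V12 and V15), and leaving out 1 library gave 2 to 10. Without the most used gene of each family it was 1, which was V11 with Ighv11-1 alone, since V12 and V15 have no other gene and are emptied by this step. The difference in summed Ighv log2 FPKM ranged from 0.0826 to 0.367 over the libraries left out, that in effective number from 0.86 to 1.64, that in the share of the 10 most used from -1.46 to -0.149 points and that in the D-proximal share from -3.07 to -0.217 points. All 4 kept their direction in the alternatives run. The cause was not tested. Genes with fewer than about 100 reads, and near-identical genes, are the least precise.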
